A study of Mus musculus with 34 samples.

Results

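The Clec4 C-type lectin cluster is a run of 9 neighbouring mouse genes (Clec4a1, Clec4a3, Clec4a4, Clec4b1, Clec4a2, Clec4b2, Clec4n, Clec4d and Clec4e, in their chromosomal order) that encode lectin receptors of myeloid cells. Each of the 9 was measured by 1 probe set annotated to that symbol alone, out of 22180 genes that could be read in this way in mouse splenic dendritic cells (DCs). The genes are closely related, so part of a probe set's signal may come from a paralog, and each value is uncertain to that extent.

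All mice were C57BL/6, and the labels give no age. Sorted CD8+ DCs and CD8- DCs came from wild-type (WT) mice and from mice labelled Mst1/2-KO (genotype Mst1/2-/-), each of these 4 groups having 4 arrays. For unseparated (total) DCs there were 4 WT arrays and 3 Mst1/2-KO arrays. In experiment 1, DCs given anti-CD40, which engages the receptor that T cells use to activate DCs, came from Rag1-/- mice, devoid of mature lymphocytes of the T and B lineages (4 arrays), and from Rag1-/- p38-/- mice (3 arrays), so both groups share the Rag1 deletion and the stimulus. Experiment 2 held 2 Rag1-/- arrays and 1 WT array after anti-CD40 and 1 array of non-stimulated Rag1-/- DCs. The sources used here name neither a Cre line nor the p38 gene deleted. Whether each array is another animal is likewise unstated, so the p-values measure only the spread between these arrays.

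C-type lectin receptors bind sugars and lipids of microbes and of dying cells. The receptors of this cluster signal in opposite ways. The DCIR receptors Clec4a2 (DCIR1) and Clec4a4 (DCIR2) carry an inhibitory tyrosine motif (ITIM) that recruits the phosphatases Ptpn6 and Ptpn11. Clec4e (Mincle), Clec4n (Dectin-2), Clec4b1 (DCAR) and Clec4b2 (DCAR1) have no signalling tail of their own and pair with the adaptor Fcer1g, whose ITAM motif activates the kinase Syk and then Card9, Bcl10 and Malt1. Clec4d (MCL) forms a complex with Clec4e. In mouse spleen, Clec4a4 is the antigen of the 33D1 antibody, which has long been used to mark CD8- DCs.

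Values are log2 array signals as the authors normalized them, and the median over all probe sets lay between 4.11 and 4.20 on each array. No detection call was used, so a level near or below this median is not shown to be above background, and no fold change is given where an array of the lower group read 4.20 or less. The values carry a constant per probe set and experiment label, so a gene was compared only within a label, and the level of a gene was never set against that of another gene. Stk4, which encodes Mst1, was lower in the Mst1/2-KO arrays in CD8+ DCs (7.47 ± 0.21 against 8.33 ± 0.09, SD, n = 4 each), in CD8- DCs (7.55 ± 0.13 against 8.32 ± 0.13) and in total DCs (7.41 ± 0.09 against 8.51 ± 0.06), with no overlap of the groups. The sorted fractions carried the markers of their labels. Of 13 CD8+ DC markers, 13 were higher in WT CD8+ than in WT CD8- DCs. Of 12 CD8- DC markers 11 were lower and the remaining marker was called higher (by 0.48). The DC integrin Itgax read 9.97 to 10.65 over the 16 sorted arrays. In the same comparison 14 of 18 monocyte and macrophage markers and 6 of 7 T cell markers were lower in CD8+ than in CD8- DCs, as were 4 of 8 B cell, 4 of 5 NK cell and 3 of 9 plasmacytoid DC markers, with 1 of the B cell and 1 of the plasmacytoid DC markers higher. The T cell list averaged 4.71 to 4.87 per array against 5.72 to 6.62. Of 13 neutrophil markers 2 were called, and their list averaged 4.79 to 5.36 per WT CD8+ array against 5.38 to 5.71 per WT CD8- array. The part of all these cells in the differences given below was not tested.

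A promoter, the stretch around a transcript's start, was found for 7 of the 9 members among the RefSeq sequences (GRCm38.p6, 250 bases before to 50 after each start). Clec4a3 had a pair of overlapping ones, of which only the second was aligned. Of 21 pairs of members aligned locally, Clec4b1 and Clec4b2 were the most alike, with an alignment score of 124 against 67 for the next pair, Clec4a1 and Clec4a3, and a median of 22. These promoters are shown because the sorted subsets separated the 2 genes in opposite directions. Capitals mark the aligned stretch, in which 143 of 192 alignment columns were identical (74.48%). Clec4b1 lies at chr6:123049712-123050011 and Clec4b2 at chr6:123172773-123173072, both on the plus strand.
Clec4b1: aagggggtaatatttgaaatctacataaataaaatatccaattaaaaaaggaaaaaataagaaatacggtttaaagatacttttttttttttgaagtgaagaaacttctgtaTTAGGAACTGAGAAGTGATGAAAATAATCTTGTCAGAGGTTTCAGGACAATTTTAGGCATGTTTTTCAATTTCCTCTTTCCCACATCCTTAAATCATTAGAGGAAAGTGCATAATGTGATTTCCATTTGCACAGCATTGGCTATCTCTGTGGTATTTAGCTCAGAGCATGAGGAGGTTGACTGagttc
Clec4b2: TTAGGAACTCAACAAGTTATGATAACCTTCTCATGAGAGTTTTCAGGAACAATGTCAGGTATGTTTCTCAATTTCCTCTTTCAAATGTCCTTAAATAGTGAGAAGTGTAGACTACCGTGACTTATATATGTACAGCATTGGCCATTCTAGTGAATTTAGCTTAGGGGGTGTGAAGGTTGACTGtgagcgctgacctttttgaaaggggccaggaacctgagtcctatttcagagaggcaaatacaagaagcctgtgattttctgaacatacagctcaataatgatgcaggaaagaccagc
The stretch ran from base -138 to base 44 in Clec4b1 (base 0 is the annotated start) and from base -250 to base -68 in Clec4b2, so the like sequence spans the annotated start of Clec4b1 and lies before that of Clec4b2. In Clec4b2 it reached the edge of the sequence read.

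Of 5 short motifs searched on both strands, GAGGAAGT (bound by PU.1) was in none of the 8 member promoters and in 3.202% of the 32851 promoters of the table. TGANTCA (AP-1) was in the promoter of Clec4a2 (7.808% of all promoters), the interferon response motif (GAAA, any 2 bases, GAAA) in those of Clec4b1 and Clec4d (3.443%), and TTNCNNAA (C/EBP) in 4 of the 8 (40.68%). TEAD factors are the DNA-binding partners of YAP at the end of the Hippo pathway, in which Mst1 and Mst2 act. Their motif GGAATG was in 14.66% of all promoters and in 1 of the 8, the second promoter of Clec4a3, which is shown because Clec4a3 differed by genotype. It lies at chr6:122952394-122952693 on the plus strand, and the capitals mark the 2 matches, at bases -39 (minus strand) and 27.
Clec4a3: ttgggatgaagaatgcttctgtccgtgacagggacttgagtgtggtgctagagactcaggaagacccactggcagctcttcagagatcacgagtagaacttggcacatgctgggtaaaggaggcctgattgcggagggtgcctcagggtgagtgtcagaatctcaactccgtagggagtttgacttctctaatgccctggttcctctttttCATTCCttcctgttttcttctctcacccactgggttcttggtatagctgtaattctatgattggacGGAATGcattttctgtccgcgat
The promoters of Clec4a1 and Clec4b1, which also differed by genotype, held no GGAATG, and neither did the other Clec4a3 promoter. Clec4a4, the remaining member that differed by genotype, had no promoter sequence to search. A match is a run of letters and was not tested as a binding site.

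The largest differences in the cluster lay between the subsets. In WT cells 9 of 9 members were called at an adjusted p under 0.05 (limma, Benjamini-Hochberg over 22180 genes), against 21% of all genes. Of these, 8 were lower in CD8+ than in CD8- DCs, against 10% of all genes called lower, and 1, Clec4b2, was higher. The WT groups of 9 of 9 members did not overlap, against 22.4% of all genes. In whole cell populations, fewer cells of a type and less RNA per cell cannot be told apart.

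Among the ITIM receptors, Clec4a4 read 4.79, 4.79, 5.47 and 4.63 in WT CD8+ DCs and 10.69, 11.14, 11.19 and 10.88 in WT CD8- DCs. The groups were far apart, and no CD8- array came near a CD8+ array. The difference was -6.05 ± 0.17 (SE), 66.4-fold lower in CD8+ DCs (adjusted p = 3.39e-13). Clec4a2, the other ITIM receptor, read 3.90, 4.05, 3.58 and 4.02 against 7.01, 7.05, 7.31 and 7.17, a difference of -3.25 ± 0.14 (adjusted p = 1.68e-11). Neither pair of groups overlapped.

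The DCIR relatives Clec4a1 (DCIR4) and Clec4a3 (DCIR3) had the same direction. Clec4a1 read 6.45, 5.71, 6.09 and 6.19 in WT CD8+ DCs and 10.99, 11.15, 11.10 and 10.92 in WT CD8- DCs, 30.5-fold lower (adjusted p = 1.2e-12). For Clec4a3 the values were 6.65, 6.85, 7.32 and 6.55 against 10.59, 10.58, 10.61 and 10.61, 13.5-fold lower (adjusted p = 1.01e-12). Both groups of 4 were tight next to the gap between them, and the 4 CD8- arrays of Clec4a3 differed by only 0.02 (SD).

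The DCAR pair was split by subset. Clec4b1 read 3.34, 3.52, 3.16 and 3.35 in WT CD8+ DCs and 7.57, 7.54, 7.11 and 7.75 in WT CD8- DCs, a difference of -4.15 ± 0.14 (adjusted p = 9.76e-13). Clec4b2 ran the other way, at 8.42, 8.96, 8.82 and 8.65 in WT CD8+ DCs and 3.07, 3.45, 4.21 and 3.38 in WT CD8- DCs, a difference of 5.18 ± 0.31 (adjusted p = 8.46e-10). So the 2 DCAR genes marked opposite subsets on all 8 WT arrays. Clec4a2, which lies between them, was lower in CD8+ DCs, as Clec4b1 was, and so was Clec4n on the far side of Clec4b2.

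The pattern receptors Clec4n, Clec4e and Clec4d had smaller differences. Clec4n read 5.57, 5.87, 6.33 and 6.44 in WT CD8+ DCs against 7.12, 8.19, 8.39 and 7.86 (3.57-fold lower, adjusted p = 8.23e-06). Clec4e read 4.65, 4.20, 4.29 and 4.26 against 6.995, 5.58, 5.59 and 5.90 (-1.67 ± 0.31, adjusted p = 0.000629). Clec4d read 4.00, 3.99, 4.03 and 4.10 against 5.22, 4.43, 4.32 and 4.28, a difference of -0.53 ± 0.16 (adjusted p = 0.0216). The first WT CD8- array was the highest of its group for both Clec4d and Clec4e and the lowest for Clec4n. The Clec4d call was lost without the second WT CD8+ array (adjusted p = 0.0506) and when only the WT arrays were fitted (0.0705).

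**Figure D1:**
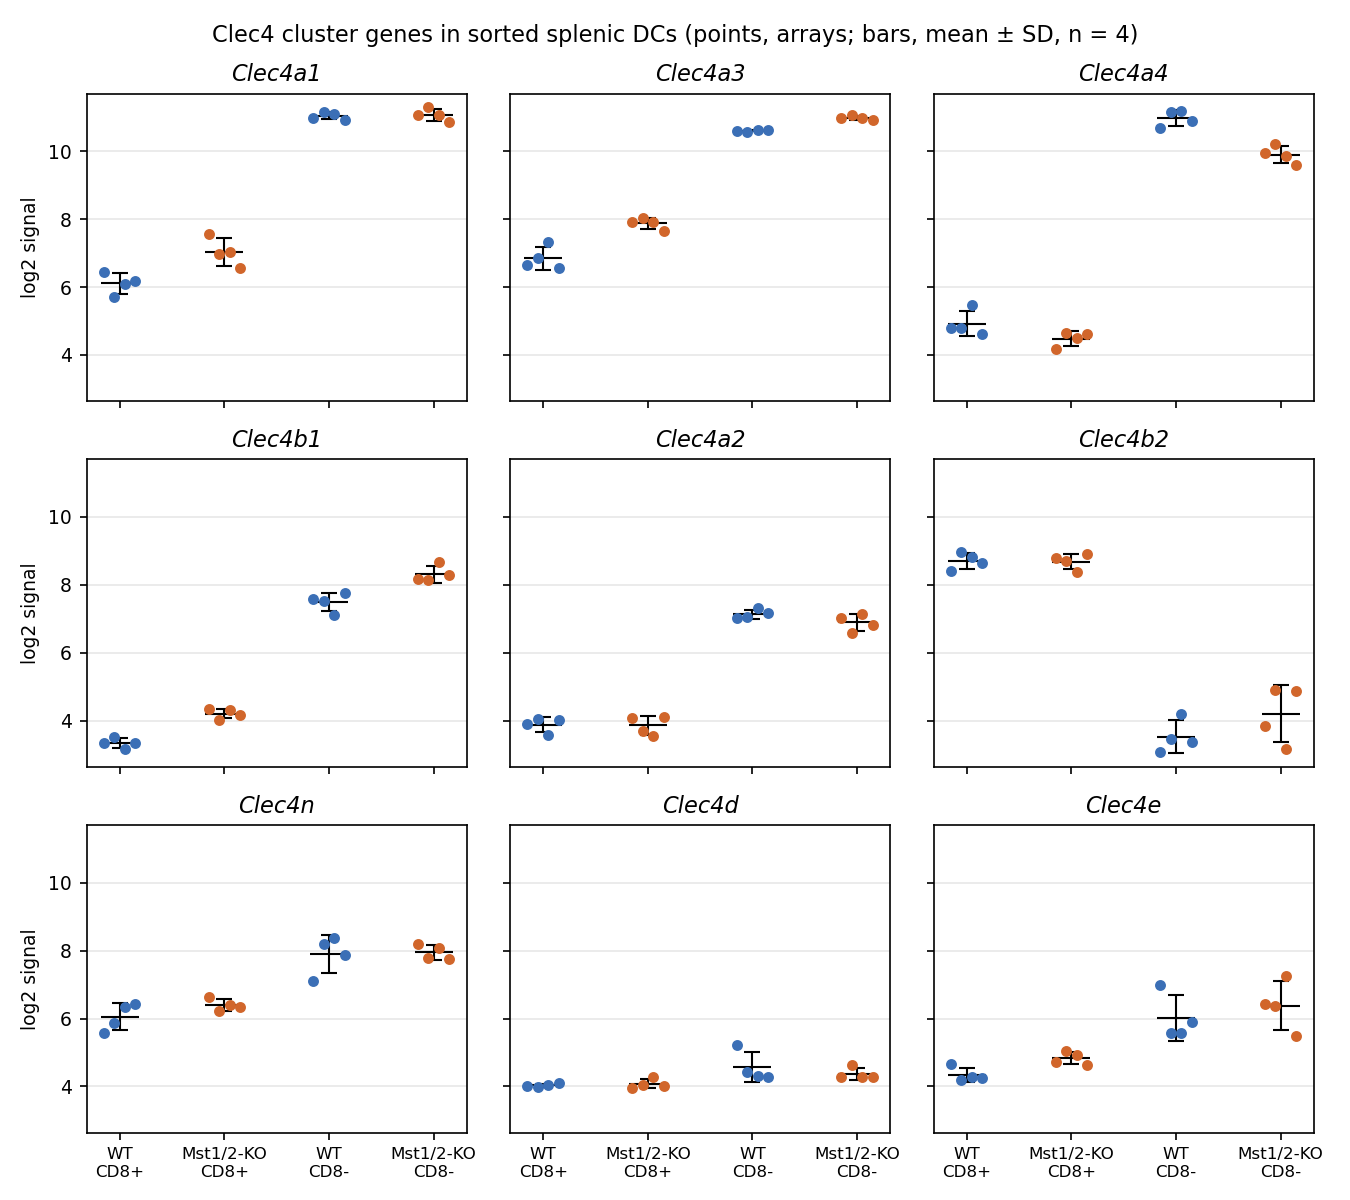
Log2 signal (y axis) of the 9 Clec4 genes in the 4 sorted groups (x axis). Points are arrays and bars are the mean ± SD of 4 arrays. Clec4b2 is high in the CD8+ groups and low in the CD8- groups, the other 8 genes are higher in WT CD8- than in WT CD8+ DCs, and Clec4a4 is lower in Mst1/2-KO than in WT CD8- DCs.

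Genes next to the cluster were called between the subsets about as often as other genes. Of 18 measured genes among the 10 before and the 10 after the cluster, 1 was called higher (Nanog, 0.32 ± 0.11, adjusted p = 0.043) and 4 lower in WT CD8+ DCs (11% and 10% of all genes), and the median over the 18 was 0.02, as over all genes. The editing enzyme Apobec1 (-3.45 ± 0.14) and the glucose transporter Slc2a3 (-3.27 ± 0.12) had differences within the range of those of the members. Necap1, which adjoins Clec4a1, was lower by a smaller amount (-1.03 ± 0.14), and Foxj2 (0.12) and C3ar1 (-0.31), which lie between Slc2a3 and Necap1, were not called (adjusted p = 0.332 and 0.111). On the other side, the 8 measured vomeronasal receptor genes next to Clec4e lay between -0.10 and 0.26, and Cd163 was at -0.42 ± 0.11 (adjusted p = 0.00907). The median over the 9 members was -3.25. By genotype, Slc2a3 (-0.67 ± 0.12, adjusted p = 0.00269) and Apobec1 (-0.61 ± 0.14, adjusted p = 0.0134) fell in Mst1/2-KO CD8- DCs, and no other of the 18 was called there.

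**Figure D2:**
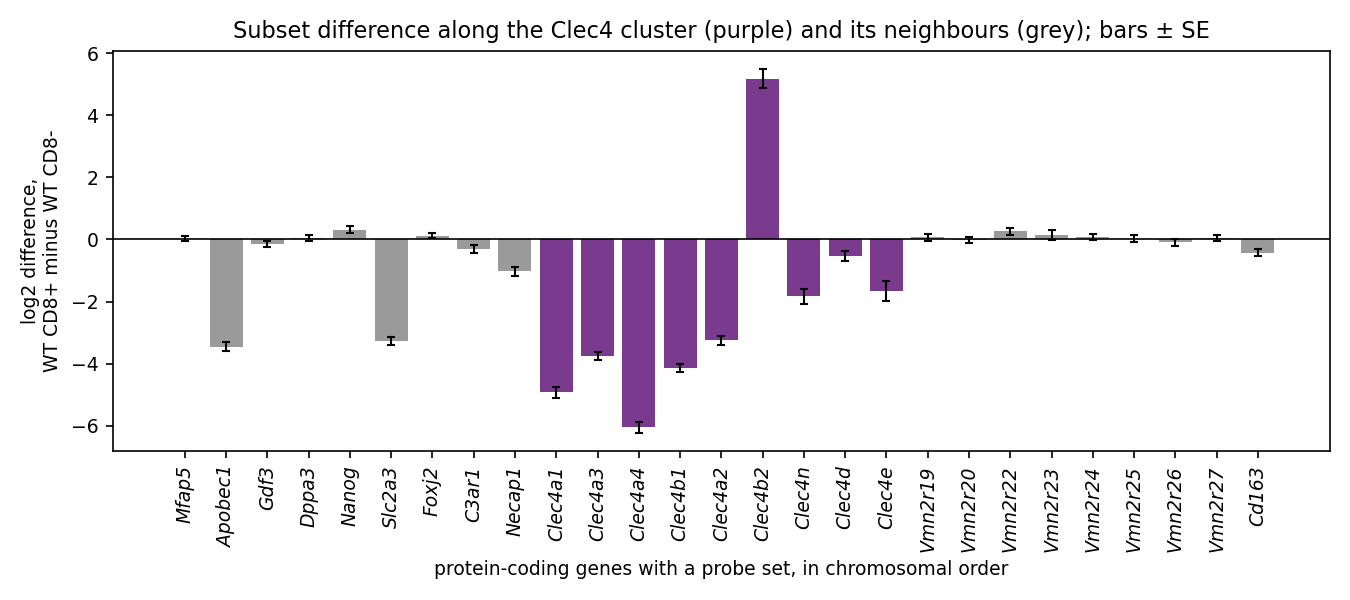
Log2 difference of WT CD8+ minus WT CD8- DCs (y axis, ± SE) for the 9 Clec4 genes (purple) and 18 neighbouring genes (grey) in chromosomal order (x axis, not to scale). Clec4b2 (5.18) is the member above 0, and Apobec1 and Slc2a3 are the neighbours with falls of over 3 log2 units.

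The subset pattern of WT cells was present in Mst1/2-KO cells as well, where 8 of 9 members were called (19.2% of all genes), 7 of them lower in CD8+ DCs (9.3% of all genes) and 1 higher (9.93%). The differences were -5.42 ± 0.17 for Clec4a4, -4.10 ± 0.14 for Clec4b1, -4.03 ± 0.17 for Clec4a1 and 4.48 ± 0.31 for Clec4b2 (adjusted p from 8.37e-13 to 6.16e-09, limma). Clec4d was the member not called, with overlapping groups (3.97, 4.05, 4.28 and 4.02 in CD8+ DCs against 4.29, 4.62, 4.28 and 4.27, a difference of -0.29 with a 95% interval from -0.62 to 0.05).

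Loss of Mst1 and Mst2 went with higher Clec4a1, Clec4a3 and Clec4b1 in CD8+ DCs. These 3 of 9 members were called higher, against 0.234% of all genes called higher and 0.888% called in either direction. Clec4a3 read 7.92, 8.02, 7.92 and 7.65 in Mst1/2-KO CD8+ DCs, where the WT values given above reached 7.32 at most. It rose by 1.03 ± 0.13 (2.05-fold, adjusted p = 0.0002). Clec4a1 read 7.55, 6.96, 7.03 and 6.57 and rose by 0.92 ± 0.17 (1.89-fold, adjusted p = 0.0125). Clec4b1 read 4.33, 4.02, 4.32 and 4.17 and rose by 0.87 ± 0.14 (adjusted p = 0.00264), both groups of this gene lying near or below the array median. For these 3 genes the lowest Mst1/2-KO array lay above the highest WT array, which held for 3.3% of all genes. Their Mst1/2-KO CD8+ levels were still far below those of either CD8- group. With only the 8 CD8+ arrays in the fit, Clec4a1 was no longer called (adjusted p = 0.0981).

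The other 6 members were not called in CD8+ DCs. Clec4a4 read 4.18, 4.64, 4.49 and 4.62, a difference of -0.44 (95% interval from -0.81 to -0.07, adjusted p = 0.349). Clec4b2, the member that CD8+ DCs express most relative to CD8- DCs, read 8.78, 8.70, 8.37 and 8.91, a difference of -0.02 with an interval from -0.68 to 0.63. Clec4e (0.48, from -0.17 to 1.14) and Clec4n (0.35, from -0.13 to 0.83) had wide intervals, and the groups of each overlapped. For Clec4a2 and Clec4d the differences were -0.03 and 0.05. In the same arrays, 1 of 12 CD8- DC markers was called higher (Itgam, 0.71 ± 0.14, adjusted p = 0.0209) and 1 lower (Ltb, -1.33 ± 0.16), and 0 of 18 monocyte and macrophage markers were called by limma (3 at an unadjusted p under 0.05). The CD8- marker list averaged 5.77 to 5.98 per Mst1/2-KO array and 5.85 to 6.22 per WT array. The 6 genes of ESAM-high cells, a part of CD8- DCs, averaged 5.02 to 5.21 against 5.25 to 5.72. Of these genes 0 were called by limma (4 at an unadjusted p under 0.05). The part of these marker lists in the member differences was not tested.

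In CD8- DCs the genotypes differed at Clec4a4 and Clec4b1, in opposite directions. These were 2 of 9 members called, 1 higher and 1 lower, against 6.68% of all genes (3.9% higher, 2.79% lower). Clec4a4 read 9.94, 10.21, 9.86 and 9.60 in Mst1/2-KO CD8- DCs, below each of the 4 WT arrays. It fell by 1.07 ± 0.17 on the log2 scale (2.10-fold, adjusted p = 0.00102). Clec4b1 read 8.17, 8.13, 8.66 and 8.28, above each WT array, and rose by 0.82 ± 0.14 (1.76-fold, adjusted p = 0.00132). Thus the ITIM receptor of the 33D1 antigen was lower and an Fcer1g-coupled receptor higher in the same 4 arrays. Non-overlap of the genotypes held for 12% of all genes (6.52% higher, 5.46% lower).

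Clec4a3 read 10.96, 11.07, 10.98 and 10.91 in Mst1/2-KO CD8- DCs and did not overlap the WT group, but its difference of 0.38 ± 0.13 was not called (adjusted p = 0.0824). It was called when only the 8 CD8- arrays were fitted (adjusted p = 0.0111). Clec4b2 varied widely, at 3.85, 4.92, 3.17 and 4.87 against the WT values from 3.07 to 4.21 (0.67 ± 0.31, adjusted p = 0.261). Without the third Mst1/2-KO array its difference was 1.02 (adjusted p = 0.0336). Clec4a1, which rose in CD8+ DCs, read 11.06, 11.29, 11.06 and 10.85 here, a difference of 0.02 with an interval from -0.34 to 0.39. For Clec4a2, Clec4n, Clec4d and Clec4e the differences lay between -0.24 and 0.37, and the groups overlapped.

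The markers of CD8- DC subpopulations moved in the same arrays as Clec4a4 and Clec4b1. ESAM-high cells are the Notch-dependent part of splenic CD8- DCs. Of 6 ESAM-high genes, 6 were called lower in Mst1/2-KO CD8- DCs, with a median of -1.43 and Cd4 (-2.03 ± 0.21), Jag1 (-1.84 ± 0.19) and Esam (-1.55 ± 0.14) the furthest down. The list averaged 6.22 to 6.63 per Mst1/2-KO array and 7.69 to 8.004 per WT array. Of 9 plasmacytoid DC markers, 4 were called higher (Cox6a2 by 3.73 ± 0.17), and of 13 CD8+ DC markers 7 were called higher and 1 lower. The CD8- DC list had 2 of 12 higher and 6 lower. It shares Esam, Cd4, Dtx1 and Tlr5 with the ESAM-high genes, so their falls are counted in both lists. B cell markers had 3 of 8 lower (list average 4.63 to 4.85 against 5.07 to 5.37 in WT) and T cell markers 1 of 7 lower. Monocyte and macrophage markers had 2 of 18 higher (Ly6c2 by 1.94 ± 0.37) and 1 lower. No NK cell marker of 5 was called by limma (1 at an unadjusted p under 0.05). ESAM-low genes, typical of the monocyte-like part, had 1 call each way among 7 by limma (4 at an unadjusted p under 0.05). They averaged 9.02 to 9.17 per Mst1/2-KO array and 8.48 to 9.11 per WT array, and most of them are also on the monocyte and macrophage list. Genes of the Y chromosome, 3 in number, averaged between 4.23 and 4.96 on Mst1/2-KO CD8- arrays and between 5.13 and 5.37 on WT ones. Among CD8+ arrays the genotypes lay at 4.18 to 5.03 and 4.92 to 5.33, with 0 of 3 called by limma in either (unadjusted p under 0.05 for 3 in CD8- DCs and 1 in CD8+ DCs). The part of these shifts in the member differences was not tested.

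**Figure D3:**
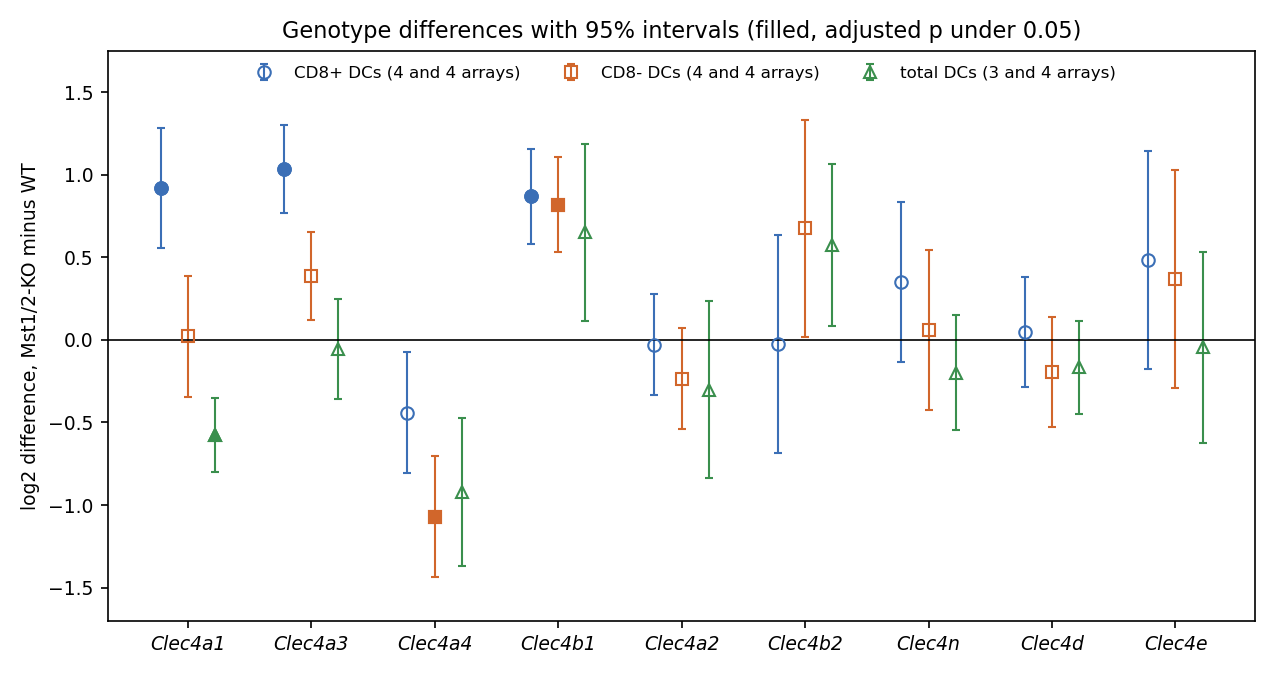
Log2 difference of Mst1/2-KO minus WT (y axis) with its 95% interval for the 9 Clec4 genes (x axis) in CD8+ DCs (circles), CD8- DCs (squares) and total DCs (triangles). Filled symbols have an adjusted p under 0.05: Clec4a1, Clec4a3 and Clec4b1 above 0 in CD8+ DCs, Clec4b1 above and Clec4a4 below 0 in CD8- DCs, and Clec4a1 below 0 in total DCs.

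Whether a genotype difference differed between the subsets was tested directly, and 0 of 9 members were called (limma, 0.559% of all genes), with 3 of 9 at an unadjusted p under 0.05 (9.15% of all genes). The CD8- minus CD8+ difference was -0.90 ± 0.24 for Clec4a1 (adjusted p = 0.125), -0.65 ± 0.18 for Clec4a3 (0.127) and -0.63 ± 0.25 for Clec4a4 (0.379). For Clec4b1 it was -0.05 (95% interval from -0.46 to 0.36), the gene being called higher in both subsets. Leaving out the third WT CD8+ array, in which Clec4a3 was highest, gave a call for Clec4a3 (-0.81, adjusted p = 0.0083).

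Total DCs, which mix the subsets, gave 1 member called, Clec4a1, which was lower where in CD8+ DCs it was higher (0.848% of all genes were called, 0.532% lower). Over all genes 70 were called higher and 118 lower, or 68 and 201 with cyclic loess. Clec4a1 read 8.45, 8.39 and 8.55 in Mst1/2-KO and 9.001, 8.91, 9.07 and 9.18 in WT total DCs, with no overlap. It fell by 0.58 ± 0.10 on the log2 scale (adjusted p = 0.0336). This call was lost when any of 6 of the 7 arrays was left out (highest adjusted p = 0.162), with the replicate number as a block (0.102) and with every probe set tested (0.124). Clec4a4 read 7.27, 6.64 and 7.46 against 7.79, 8.08, 7.95 and 8.37, again without overlap, a difference of -0.92 ± 0.20 (adjusted p = 0.072). Under 3 other settings it was called (adjusted p from 0.0417 to 0.0468). Non-overlap downwards held for 5.49% of all genes.

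Clec4b1 read 6.28, 6.54 and 5.76 in Mst1/2-KO and 6.15, 5.23, 5.51 and 5.30 in WT total DCs (0.65, 95% interval from 0.11 to 1.19, adjusted p = 0.271). Clec4b2 read 6.63, 6.26 and 6.46 against 6.37, 5.65, 5.37 and 6.11 (0.58, from 0.09 to 1.06, adjusted p = 0.289). Both had the sign of a rise but overlapped between genotypes. The remaining 5 members lay between -0.30 and -0.05. Total DCs can differ in the share of each subset. Of 12 CD8- DC markers, 10 were below 0 and 1 was called (Cd4, -2.20 ± 0.30), of 6 ESAM-high genes 2 were called lower (list average 5.44 to 5.99 per Mst1/2-KO array and 6.53 to 7.14 per WT array), and of 13 CD8+ DC markers 12 were above 0 and 0 called by limma (9 at an unadjusted p under 0.05). All 9 members differed between the WT subsets, and the part of subset shares in the fall of Clec4a1 and the lower Clec4a4 was not tested.

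**Figure D4:**
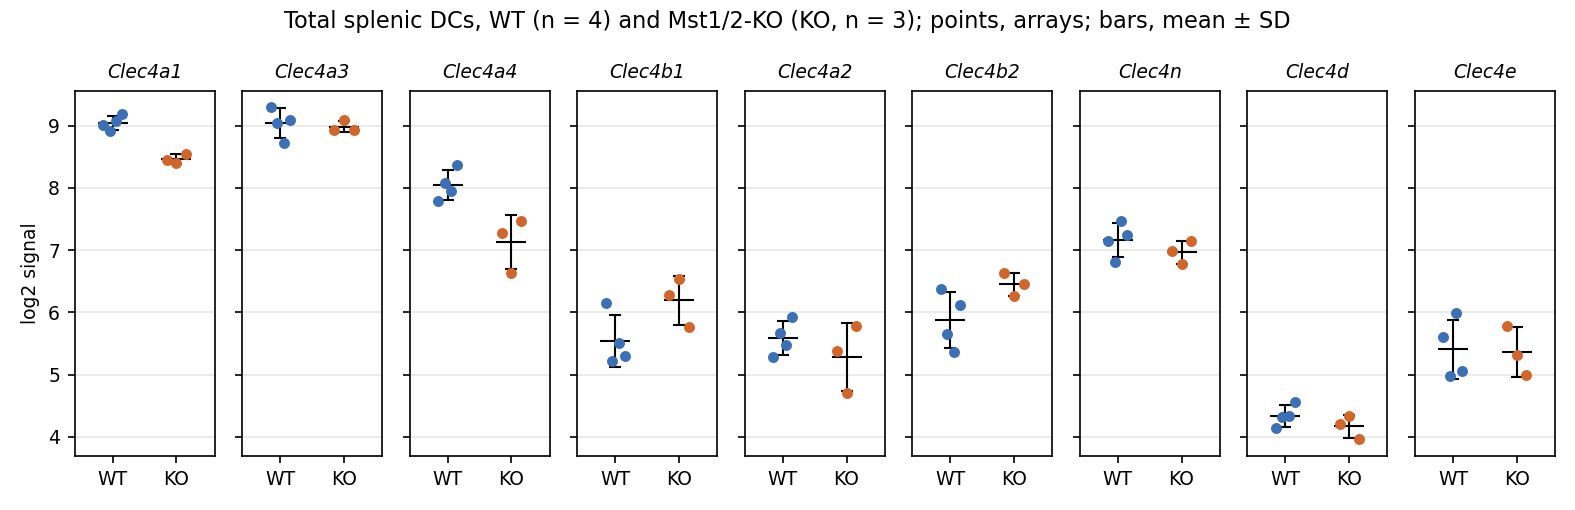
Log2 signal (y axis) of the 9 Clec4 genes in total DCs of WT (n = 4) and Mst1/2-KO (n = 3) mice (x axis). Points are arrays and bars the mean ± SD. The groups of Clec4a1 and Clec4a4 do not overlap, with Mst1/2-KO below WT, and the groups of the other 7 genes do.

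Deletion of p38 in Rag1-/- mice was compared in anti-CD40-stimulated DCs of experiment 1. No member was called (limma), and 0% of all genes were. At an unadjusted p under 0.05, 4 of 9 members passed, against 8.41% of all genes, and the same 4 had groups that did not overlap, 2 lower and 2 higher in p38-/- DCs, against 7.48% of all genes (3.6% lower, 3.89% higher). Clec4e, the Mincle receptor, read 4.85, 4.18 and 3.62 in p38-/- and 6.61, 4.98, 7.05 and 6.49 in the p38-intact DCs, a difference of -2.06 ± 0.52 (unadjusted p = 0.00601, adjusted p = 0.433). Its partner Clec4d read 3.78, 2.90 and 3.58 against 5.86, 4.12, 5.11 and 4.47 (-1.47 ± 0.44, adjusted p = 0.512). Every p38-/- array was below every p38-intact array for both genes of this receptor complex.

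Clec4b1 and Clec4a1 lay on the other side. Clec4b1 read 6.35, 6.44 and 6.44 in p38-/- against 5.89, 5.55, 5.35 and 4.86 (1.00 ± 0.22, adjusted p = 0.397), and Clec4a1 read 8.91, 9.03 and 9.20 against 8.71, 8.87, 8.77 and 8.17 (0.42 ± 0.17, adjusted p = 0.59). Clec4n read 6.53, 6.25 and 7.15 against 7.09, 6.88, 7.97 and 7.64 and overlapped (-0.75, 95% interval from -1.51 to 0.01). The other 4 members lay between 0.00 and 0.37 and overlapped as well. Of the subset markers, Cd8a read 8.95 to 9.50 in p38-/- and 9.61 to 10.19 in p38-intact DCs, without overlap. Xcr1 overlapped (9.26 to 9.74 against 9.32 to 9.98). So did the averages of the CD8+ list (9.01 to 9.44 against 9.17 to 9.61) and the CD8- list (7.38 to 7.66 against 6.92 to 7.57). The part of subset shares in the member differences was not tested.

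Neutrophils also express Clec4d and Clec4e, and neutrophil markers moved with these genes. Of 13 neutrophil markers, 13 were below 0 in p38-/- DCs, with a median of -1.14 and 0 called by limma (9 at an unadjusted p under 0.05). The list averaged 5.21, 4.85 and 3.89 in the p38-/- arrays and 6.03, 5.53, 6.41 and 5.48 in the p38-intact arrays. S100a8 reached 5.97 to 8.08 against 8.10 to 8.78, and Ly6g, the defining surface marker, 3.51 to 3.87 against 4.03 to 4.31. Ly6g lay near or below the array median, so it is not shown to be above background. Csf3r, of the same list, overlapped between the groups (5.39 to 5.94 against 5.47 to 6.58). The 2 lowest Clec4e arrays were the 2 with the lowest list average. Other arrays broke this order. Clec4d was lowest (2.90) on the p38-/- array averaging 4.85, and Clec4e read 6.49 on the p38-intact array averaging 5.48. Of 18 monocyte and macrophage markers 14 were below 0 and 0 were called (5 at an unadjusted p under 0.05). The part of these cells in the Clec4d and Clec4e values was not tested.

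**Figure D5:**
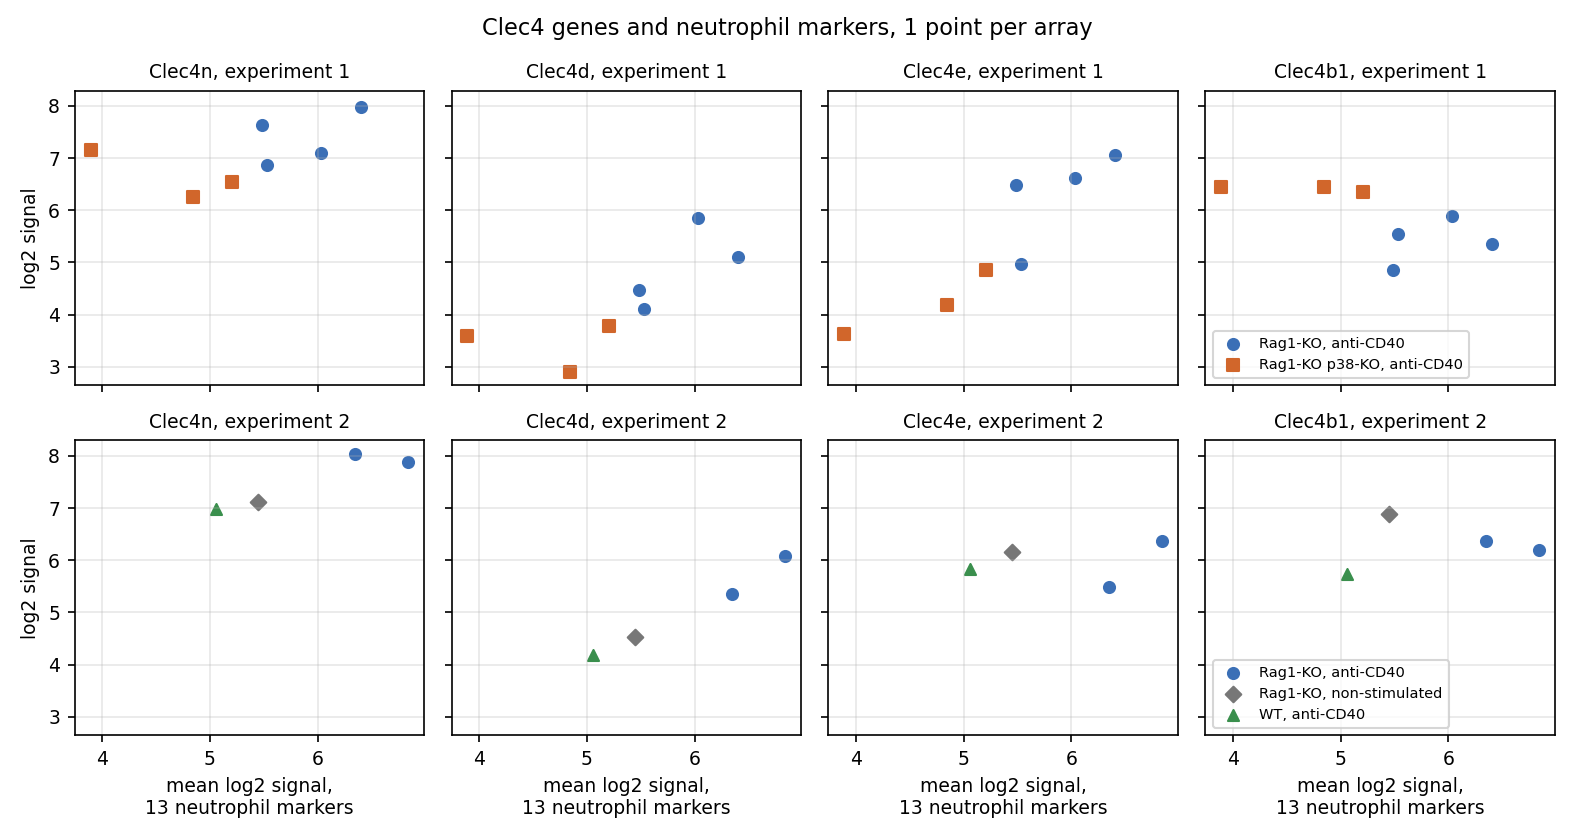
Log2 signal of Clec4n, Clec4d, Clec4e and Clec4b1 (y axis) against the mean log2 signal of 13 neutrophil markers (x axis) on each array of experiment 1 (top row) and experiment 2 (bottom row). Clec4d and Clec4e are lowest on the p38-/- arrays, where the marker mean is 3.89 to 5.21, and Clec4d is highest in each experiment on arrays with a marker mean above 6.

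In experiment 2, each comparison rests on a lone array that is assumed to vary like the arrays of the other groups. No member was called for anti-CD40 against no stimulation in Rag1-/- DCs (limma, 0.0361% of all genes), with 1 of 9 at an unadjusted p under 0.05 (13.1%). Clec4d read 5.36 and 6.08 with anti-CD40 and 4.52 without (1.20, 95% interval from -0.30 to 2.69), and Clec4n read 8.04 and 7.89 against 7.12 (0.85, from -0.20 to 1.89). Clec4a3 read 9.11 and 9.38 against 9.71 (-0.47, from -0.84 to -0.09, adjusted p = 0.287), and Clec4b1 read 6.37 and 6.20 against 6.88 (-0.60, from -1.34 to 0.14). For 6 members both anti-CD40 arrays lay on the same side of the lone array, which held for 70% of all genes.

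Likewise no member was called for WT against Rag1-/- DCs after anti-CD40 (limma, 0.365% of all genes), and 2 of 9 had an unadjusted p under 0.05 (14%). This comparison uses the same 2 Rag1-/- arrays as the preceding one. Clec4a4 read 8.47 on the WT array and 7.07 and 7.64 on the Rag1-/- arrays (1.12, 95% interval from 0.14 to 2.10, adjusted p = 0.295). Clec4d read 4.18 against 5.36 and 6.08 (-1.54, from -3.04 to -0.05, adjusted p = 0.341), and Clec4n 6.98 against 8.04 and 7.89 (-0.98, from -2.03 to 0.06). The lone WT array lay outside the 2 Rag1-/- arrays for 8 of 9 members, against 71.7% of all genes. The neutrophil list averaged 6.35 and 6.84 on the Rag1-/- anti-CD40 arrays, 5.45 on the non-stimulated array and 5.06 on the WT array. Clec4d and Clec4n had the same order of groups as this average, Clec4e did not (5.49 and 6.37, 6.16, and 5.83), and the part of neutrophils in these values was not tested. Lymphocyte markers differed as well. The B cell list averaged 4.96 on the WT array against 4.15 and 4.19 on the Rag1-/- anti-CD40 arrays. The T cell list averaged 5.25 against 5.42 and 5.52, its genes differing in both directions (from -1.46 to 1.21). Of 5 NK cell markers, 0 were called by limma (3 at an unadjusted p under 0.05, list average 4.17 against 5.24 and 5.44), and the part of these cells was not tested.

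The signalling partners of the receptors did not follow the members as a block. Of 10 measured ITAM signalling genes, 6 were called lower and 2 higher in WT CD8+ than in WT CD8- DCs. Fcer1g, the adaptor of the activating members, was lower (-2.57 ± 0.08), as were Malt1 (-1.32 ± 0.12) and Syk (-1.25 ± 0.09), and the exchange factor Vav3 was higher (0.92 ± 0.11). Of 5 ITIM effectors, the phosphatase Ptpn6 was lower (-1.25 ± 0.08) and 3 were higher, among them Inpp5d (0.64 ± 0.07). By genotype, Malt1 fell in CD8- DCs (-0.56 ± 0.12, adjusted p = 0.00958) and Vav3 (0.48 ± 0.11) and Prkcd (0.29 ± 0.08, adjusted p = 0.0481) rose. In CD8+ DCs no ITAM gene was called by limma (3 of 10 at an unadjusted p under 0.05), Fcer1g lying at 0.29 ± 0.08 (adjusted p = 0.148), and the adaptor Dok1 of the ITIM list fell (-0.59 ± 0.08).

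Other lectin receptors of myeloid cells, 25 measured genes outside the cluster, gave 12 lower and 5 higher calls in WT CD8+ DCs. Cd207 (langerin, 4.60 ± 0.16) and Ly75 (DEC-205, 3.13 ± 0.17) were higher in CD8+ DCs, as Clec4b2 was, and Cd209a (-4.40 ± 0.27) and Cd209d (-3.73 ± 0.23) lower, as the other members were. By genotype, 6 rose and 3 fell in CD8- DCs. Cd209d (1.25 ± 0.23), Clec10a (1.13 ± 0.20) and Mgl2 (1.11 ± 0.14) rose, as Clec4b1 did, and Ly75 fell (-0.95 ± 0.17), as Clec4a4 did. In CD8+ DCs 1 of 25 was called, Clec2i, and it fell (-1.23 ± 0.15).

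Over the 16 sorted arrays, which share these 4 groups, the profiles of the members are described by Pearson's r, with no test. Of 36 pairs of members 28 had an r above 0 (median 0.854), and the 8 others were the pairs with Clec4b2. Once each group's mean was removed, 17 of 36 were above 0 (median -0.04), so the correlation lay in the differences between groups. The gene nearest to Clec4a1 was the adaptor Fcer1g (r = 0.994), and nearest to Clec4a4 were Sh2d1b1 (0.995), Cd22 (0.995) and Sirpa (0.994). Both Clec4a3 and Clec4b1 were closest to the integrin Itgam (0.991 and 0.992), and Clec4a2 to Siglecg (0.992). For Clec4b2 the nearest genes were Aif1 (0.985) and Cd207 (0.985). Clec4n was closest to Prkd2 (0.979), Clec4e to Atf6 (0.956) and Clec4d, whose range over the 16 arrays was the smallest, to Vegfa (0.933).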

How the data were processed

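Per the labels' protocols, splenic DCs were sorted by FACS and their amplified RNA, carrying biotin, was hybridised to arrays. The authors deposited 41155 probe sets on 34 arrays as log2 values, and the submitters' processing notes name RMA and Partek 6.6. Within an experiment label, 99.1% to 99.64% of probe sets share the trailing digits of their values, against 0.009719% over all labels, and each probe set has the same mean in experiment 1 and in the sorted arrays (tolerance 1e-04), so levels were compared within a label only. Precision is limited by the number of arrays.

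Genes were named from the platform annotation: 23521 probe sets had exactly 1 symbol, 1814 several and 15820 none, and the probe set with the highest mean represented a gene (22180 genes). Stk3, which encodes Mst2, had no such probe set and was not analysed here. With limma 3.58.1 (lmFit and eBayes, R 4.3.3), a mean per group was modelled over the 16 sorted, the 7 total DC or the 7 experiment 1 arrays. Experiment 2 was fitted together with experiment 1 (11 arrays), so that lone arrays borrow the spread. A call is an adjusted p under 0.05, with Benjamini-Hochberg adjustment over all genes. A comparison named, of each list, up to 4 called genes of largest change or, with fewer than 2 called, the 2 of smallest p, and for each member the genes of highest Pearson r. The members, lists, comparisons and tests were chosen with earlier results of these data known.

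Arrays of the same replicate number shared deviations from their group means in the WT subsets (r from 0.126 to 0.337 over 4 pairs, from the data alone), which pairs them. For the Mst1/2-KO subsets (0.0926 to 0.213), the genotypes and the p38 comparison they did not reach 0.1 in every pair. In both genotypes, each CD8+ array was closest to the CD8- array of its own number (4 of 4 pairs). The reported fits did not use this pairing. Alternatives were other normalizations, a filter on low genes, every probe set, other eBayes settings, array weights, fewer groups, the replicate block and leaving out each array. Promoters were aligned with Biopython 1.88 (local, match 2, mismatch -3, gap opening -5, extension -2). Protein sequences were not used here. Some genes of the lists are not reported here.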

Additional observations from a re-analysis of the deposited data

Results flagged for a closer look

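Among 54 groups of 4 arrays over the members, 3 held an array far from the other 3, and chance gives such an array in about 1 in 20 groups. Clec4a2, an ITIM receptor, read 5.06 on the fourth Rag1-/- anti-CD40 array of experiment 1, where the others lay at 5.39 to 5.42. Clec4d read 5.22 on the first WT CD8- array against 4.28 to 4.43 on the others. It also read 4.62 on the second Mst1/2-KO CD8- array against 4.27 to 4.29.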

How the results depend on the processing

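The number of members called stayed at 2 to 3 in CD8+ DCs, 2 to 3 in CD8- DCs, 8 to 9 in the WT subsets and 8 in the Mst1/2-KO subsets over the alternatives run, and at 0 in experiments 1 and 2. In total DCs it was 2 with quantile normalization, with cyclic loess and with a trended, robust eBayes (Clec4a1 and Clec4a4), 0 with every probe set tested, and 0 to 1 when an array was left out. For the difference between subsets it was 0 to 1 when an array was left out. No called value changed sign. Among values not called in either fit, the sign differed 7 times over other settings and 29 times over left-out arrays. Over all genes, the count called in total DCs was 188, and 27 with every probe set, 340 with the trended eBayes, 296 with genes above the median gene, 108 with the replicate block and 39 to 169 with an array left out. In CD8+ DCs it was 197, and 121 with every probe set, 123 with only the groups compared and 114 to 209 with an array left out. The remaining settings gave 212 (array weights) to 273 (genes above the median gene, and the replicate block) in CD8+ DCs. For the difference between subsets it was 124, 53 with every probe set, 222 with array weights, 211 with a block within genotype and 79 to 259 with an array left out. Leaving out an array gave 918 to 1533 in CD8- DCs (1482), and the other settings gave 1022 (every probe set) to 1986 (array weights). For anti-CD40 against no stimulation it was 8 and otherwise 1 to 136, and for WT against Rag1-/- DCs 81 and otherwise 4 to 234.

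The replicate number as a block left 3 members called in CD8+ DCs, 2 in CD8- DCs, 9 in the WT subsets and 8 in the Mst1/2-KO subsets. It left 0 called for the difference between subsets and for p38. A block within genotype, added after seeing the data, was fitted only for the subset comparisons and the difference between subsets. With it 9 members were called in the WT subsets, 8 in the Mst1/2-KO subsets and 0 for the difference. In total DCs the replicate block left 0 called, where every array was closest to its own number in 3 of 3 pairs (r from 0.0465 to 0.13). In experiment 1 this also held for 3 of 3 pairs (0.0935 to 0.162), and between genotypes in CD8+ and CD8- DCs for 1 and 2 of 4 pairs. Experiment 2 has lone arrays, so no block was fitted. For the difference between subsets, a fit with only the groups compared is the fit reported. The cause of these changes was not tested.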
